A study of Mus musculus with 6 samples.

Results

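The genes described here encode 10 enzymes that turn glycerol 3-phosphate into triglyceride by way of phosphatidic acid and diacylglycerol (DAG). They were picked out by name, with no threshold on the counts, as the rows of the deposited table whose symbol was Gpam, Gpat4, Agpat1, Agpat2, Agpat3, Agpat5, Lpin1, Lpin2, Dgat1 or Dgat2. All 10 were found among the 14774 genes of the table. RNA sequencing was carried out on 3 libraries of untreated wild-type MA-10, a line of mouse Leydig tumor cells, and 3 libraries of untreated STARKO1 cells, which carry a CRISPR/Cas9 frameshift deletion in exon 2 of Star. STARKO1 is 1 clone grown from a single sorted cell, so the effect of the deletion and the differences between 1 clone and its parental population cannot be told apart. The labels do not say whether the 3 libraries of a cell line came from separate cultures, so p values measure only the spread between these libraries, which may be technical.

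Triglyceride is made in the endoplasmic reticulum and at lipid droplets in a chain of steps. Glycerol-3-phosphate acyltransferases (GPAT) add a fatty acid to glycerol 3-phosphate, and 1-acylglycerol-3-phosphate acyltransferases (AGPAT) add another to give phosphatidic acid. Lipins remove the phosphate to give DAG, and diacylglycerol acyltransferases (DGAT) add the last fatty acid. DAG is thus the product of the lipins and the substrate of the DGAT enzymes, and it also serves phosphatidylcholine synthesis and protein kinase C signaling. Leydig cells are known for their large lipid droplets, which hold mostly cholesteryl esters for steroid synthesis. The comparison asked whether the genes of this chain were expressed differently when Star was disrupted, in cells whose lipid droplets the study had examined for DAG.

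Total counts ranged from 14114360 to 19530069 per library. Levels are given as CPM, counts divided by a library total that TMM scaling had corrected for differences in composition, and values of 3 libraries are listed in the order of replicates 1, 2 and 3. Star, the targeted gene, was at 60.9, 109 and 61.4 CPM in the MA-10 libraries and at 2.06, 2.71 and 2.02 CPM in the STARKO1 libraries. The MA-10 libraries stood apart from each other. The 7SL RNA, a small structural RNA, made up 1.81% of MA-10 replicate 1, 14.4% of replicate 2 and 6.63% of replicate 3, and 1.82% to 2.37% of the STARKO1 libraries. Gm26917 made up 8.71%, 0.571% and 1.63% of the MA-10 libraries and 4.97% to 6.03% of the STARKO1 libraries. Ribosomal protein genes made up 3.96%, 7.93% and 7.03% of the MA-10 libraries and 3.67% to 3.83% of the STARKO1 libraries. The TMM factors were 1.155, 0.654 and 0.805 in MA-10 cells and 1.17 to 1.19 in STARKO1 cells. MA-10 replicate 1 was thus closer to the STARKO1 libraries than to the other MA-10 libraries in these respects. The part of these differences in the results below was not tested. Values without MA-10 replicate 1 are given for the enzyme genes, and the pathway genes named below, whose call changed when it was left out. Other genes of the pathway lists, such as Gpd1l and Fitm2, changed call too and are not described. All 8 Leydig cell markers looked up were found, Star among them, with a summed level of 1373 to 1896 CPM in MA-10 cells and 1195 to 1257 CPM in STARKO1 cells. They did not move together. Besides Star, Hsd3b1 was called lower in STARKO1 cells (log2 fold change -2.52, edgeR adjusted p = 0.00268). Cyp11a1 and Lhcgr were lower and Nr5a1 and Cyp17a1 higher without overlap but not called by edgeR, and Insl3 and Fdx1 overlapped. With DESeq2, Cyp11a1 and Cyp17a1 also passed (DESeq2 adjusted p = 0.00801 and 0.0358). Without MA-10 replicate 1, Cyp11a1, Nr5a1 and Cyp17a1 passed (edgeR adjusted p = 0.000593, 0.00142 and 0.0318) and Lhcgr did not. Markers of other testis cells were also looked up. Of the Sertoli cell genes, 2 of 6 were found (Rhox5 and Gata1). They summed to 318 to 509 CPM in MA-10 cells and 557 to 577 CPM in STARKO1 cells. Nearly all of this sum was Rhox5, and Gata1 reached at most 9.83 CPM. Rhox5 and Gata1 were higher in STARKO1 cells without overlap but not called (log2 fold changes 0.52 and 1.09, edgeR adjusted p = 0.153 and 0.0564). Gata1 passed with DESeq2 (DESeq2 adjusted p = 0.00615), and both passed without MA-10 replicate 1 (edgeR adjusted p = 0.000534 and 0.000326). Found too were 1 of 5 germ cell genes (Ddx4, 1.91 to 3.55 CPM over all libraries) and 2 of 4 endothelial genes. Of the macrophage genes, 2 of 5 were found (Csf1r and Cd68, together 4.86 to 9.85 CPM over all libraries). The other genes of these lists were not found by symbol in the deposited table, where the smallest total over 6 libraries was 10 counts. The endothelial genes, Cdh5 and Pecam1, summed to 26.4 to 41.5 CPM in MA-10 cells and 118 to 124 CPM in STARKO1 cells. Nearly all of it was Cdh5, and Pecam1 reached at most 0.86 CPM. Cdh5 was called higher in STARKO1 cells (log2 fold change 1.84, edgeR adjusted p = 0.00596). The part of these markers in the results was not tested. Both groups are cultured cells of a line, not tissue. In bulk RNA, fewer cells expressing a gene and less of its RNA per cell cannot be told apart.

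No enzyme gene that could be tested was called different between the cell lines, and Dgat2 was too low to test. Of the 9 that had enough counts to be tested, 0 had an adjusted p under 0.05 in edgeR's quasi-likelihood test, where 9.04% of the 11939 genes tested did. With DESeq2, 0 of the 9 passed, against 28.4% of all genes tested. At an unadjusted p under 0.05 in the edgeR fit, 3 of the 9 were higher in STARKO1 cells (Gpam, Agpat2 and Lpin1), beside 15.0% of all genes tested, and 0 were lower, beside 22.7%. The estimated difference was above 0 for 7 of the 9 and below 0 for Agpat5 and Lpin2. The median log2 fold change of the 9 genes was 0.23, and that of all genes tested was -0.05. In 2 of the 9, Gpam and Agpat2, the 3 STARKO1 libraries lay above the 3 MA-10 libraries, beside 21.5% of all genes tested, and in 0 they lay below, beside 21.0%. Without MA-10 replicate 1, Gpam, Gpat4, Agpat2 and Agpat3 were called higher in STARKO1 cells, 4 of 9 genes beside 33.9% of all genes tested, and 0 were called lower, beside 31.6%. That fit rests on 2 MA-10 libraries and moved the median log2 fold change of all genes by 0.11. Without MA-10 replicate 2 or 3, 0 of the 9 were called, beside 512 of 12171 and 180 of 12215 genes tested. The log2 fold changes were then 0.59 and 0.50 for Gpam and 0.20 and 0.31 for Gpat4. They were 0.48 and 0.35 for Agpat2 and 0.11 and 0.096 for Agpat3, all below those with all 6 libraries.

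**Figure D1:**
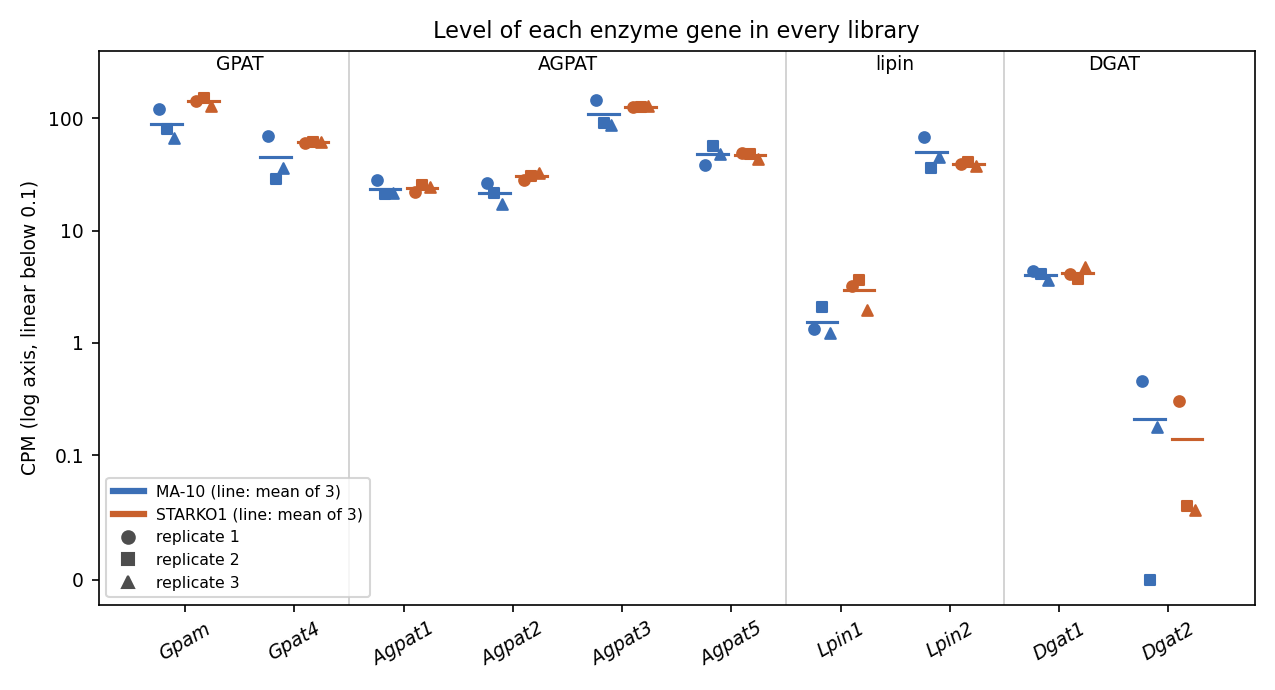
CPM of the 10 enzyme genes in each library, on an axis that is logarithmic above 0.1 CPM and linear below, with MA-10 in blue, STARKO1 in orange, a marker shape for each replicate and a line at the mean of 3 libraries. The 2 genes whose cell lines do not overlap are Gpam and Agpat2, and Dgat2 lies at or under 0.458 CPM in every library.

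The GPAT step opens the chain. Gpam (chromosome 19 of mm10, 55067268 to 55127238, minus strand) encodes the mitochondrial acyltransferase. In MA-10 cells its level was 122 CPM in replicate 1, 79.7 in replicate 2 and 66.7 in replicate 3, and in STARKO1 cells 144, 152 and 129 CPM. Every STARKO1 library was above every MA-10 library, with MA-10 replicate 1 nearest. The MA-10 mean was 89.3 ± 28.6 CPM and the STARKO1 mean 142 ± 11.7 CPM (SD, n = 3 each). The log2 fold change of Gpam was 0.67 (standard error, SE, 0.248, edgeR adjusted p = 0.104), with a 95% interval from 1.06-fold to 2.39-fold. Without MA-10 replicate 1 the log2 fold change was 1.05 (SE 0.129, edgeR adjusted p = 0.000221).

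Gpat4 (chromosome 8, 23171265 to 23208346, minus strand) encodes the main GPAT of the endoplasmic reticulum. It had 69.8, 28.7 and 36.4 CPM in the MA-10 libraries, and 60.6, 61.4 and 61.4 CPM in the STARKO1 libraries. The groups overlapped, since MA-10 replicate 1 was above all STARKO1 libraries and the other MA-10 libraries were below them. Its log2 fold change was 0.44 (SE 0.326, edgeR adjusted p = 0.341), and 0.99 (SE 0.14, edgeR adjusted p = 0.000434) without MA-10 replicate 1. The call of Gpat4 thus rested on whether that library was included.

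The AGPAT step makes phosphatidic acid. Agpat2 (chromosome 2, 26593057 to 26604417, minus strand), whose human counterpart is mutated in a form of congenital lipodystrophy, had 26.4, 21.4 and 17.2 CPM in the MA-10 libraries. The STARKO1 libraries held 28.3, 30.8 and 32.2 CPM. The STARKO1 libraries were all above the MA-10 libraries, by a narrow margin over MA-10 replicate 1. Its log2 fold change was 0.49 (SE 0.196, edgeR adjusted p = 0.121, 95% interval from 1.02-fold to 1.94-fold). Without MA-10 replicate 1, the log2 fold change of Agpat2 was 0.75 (SE 0.133, edgeR adjusted p = 0.00149).

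Agpat1 (chromosome 17, 34604262 to 34613449, plus strand), which catalyzes the same reaction as Agpat2 in the endoplasmic reticulum, had 28, 21.2 and 21.5 CPM in the MA-10 libraries and 22.3, 25.6 and 24.3 CPM in the STARKO1 libraries. All 3 STARKO1 libraries lay within the range of the MA-10 libraries. The estimated log2 fold change was 0.03 (SE 0.175, edgeR adjusted p = 0.908), and the 95% interval reached from 0.766-fold to 1.36-fold. The sign of Agpat1 turned in 3 of the 6 fits that left out 1 library.

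Agpat3 (chromosome 10, 78269178 to 78352489, minus strand), an isoenzyme with a preference for polyunsaturated acyl chains, was the most abundant of the AGPAT genes. It had 146, 91.0 and 87.8 CPM in the MA-10 libraries, and 125, 127 and 128 CPM in the STARKO1 libraries. As with Gpat4, MA-10 replicate 1 was above the STARKO1 libraries and the other MA-10 libraries were below. The log2 fold change of Agpat3 was 0.23 (SE 0.231, edgeR adjusted p = 0.483), and 0.59 (SE 0.104, edgeR adjusted p = 0.0014) without MA-10 replicate 1.

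Agpat5 (chromosome 8, 18846277 to 18891361, plus strand), a mitochondrial member of the family, had 38.3, 56.5 and 48.3 CPM in the MA-10 libraries and 49, 47.6 and 43.6 CPM in the STARKO1 libraries. It was the gene in which MA-10 replicate 1 had the lowest level of all 6 libraries. The log2 fold change was -0.03 (SE 0.185, edgeR adjusted p = 0.918), and the 95% interval reached from 0.723-fold to 1.33-fold. Its sign turned positive with upper quartile scaling, with library size alone and without a filter on low counts.

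The lipin step yields DAG. Lpin1 (chromosome 12, 16535669 to 16610966, minus strand), the lipin typical of adipose tissue and muscle, was low, at 23, 24 and 14 counts in MA-10 cells and 74, 62 and 35 in STARKO1 cells. These were 1.32, 2.08 and 1.23 CPM in MA-10 cells and 3.18, 3.65 and 1.97 CPM in STARKO1 cells. The cell lines overlapped, because STARKO1 replicate 3 was below MA-10 replicate 2. The log2 fold change of Lpin1, 0.93, was the largest among the 9 tested enzymes with all 6 libraries (SE 0.355, edgeR adjusted p = 0.110, 95% interval from 1.06-fold to 3.42-fold). It was 0.91 (SE 0.367, edgeR adjusted p = 0.0567) without MA-10 replicate 1, then below those of Gpam and Gpat4.

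Lpin2 (chromosome 17, 71182560 to 71249817, plus strand), the lipin prominent in liver, had the highest level per length of the lipins in MA-10 cells, and in STARKO1 cells was close to Lpin3. It had 67.9, 36.0 and 45.4 CPM in the MA-10 libraries, and 39.1, 40.5 and 37.3 CPM in the STARKO1 libraries. The STARKO1 libraries lay above MA-10 replicate 2 and below the other MA-10 libraries. Its log2 fold change was -0.35 (SE 0.246, edgeR adjusted p = 0.312), and 0.02 (SE 0.138, edgeR adjusted p = 0.894) without MA-10 replicate 1, so that the negative estimate rested on that library.

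The DGAT step closes the chain. Dgat1 (chromosome 15, 76502015 to 76511953, minus strand) had 4.35, 4.08 and 3.61 CPM in the MA-10 libraries and 4.13, 3.71 and 4.72 CPM in the STARKO1 libraries, and the groups overlapped throughout. Its log2 fold change was 0.06 (SE 0.212, edgeR adjusted p = 0.853). The 95% interval reached from 0.735-fold to 1.48-fold, on counts of 41 to 96 per library. Dgat2 (chromosome 7, 99153658 to 99182719, minus strand), an enzyme unrelated in sequence to Dgat1 and closely tied to lipid droplets, was counted 8, 0 and 2 times in MA-10 cells and 7, 1 and 1 times in STARKO1 cells. It was at or under 3 counts, taken as the floor, in 2 libraries of each cell line, and was not tested. A difference in Dgat2 was not detectable at this depth.

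**Figure D2:**
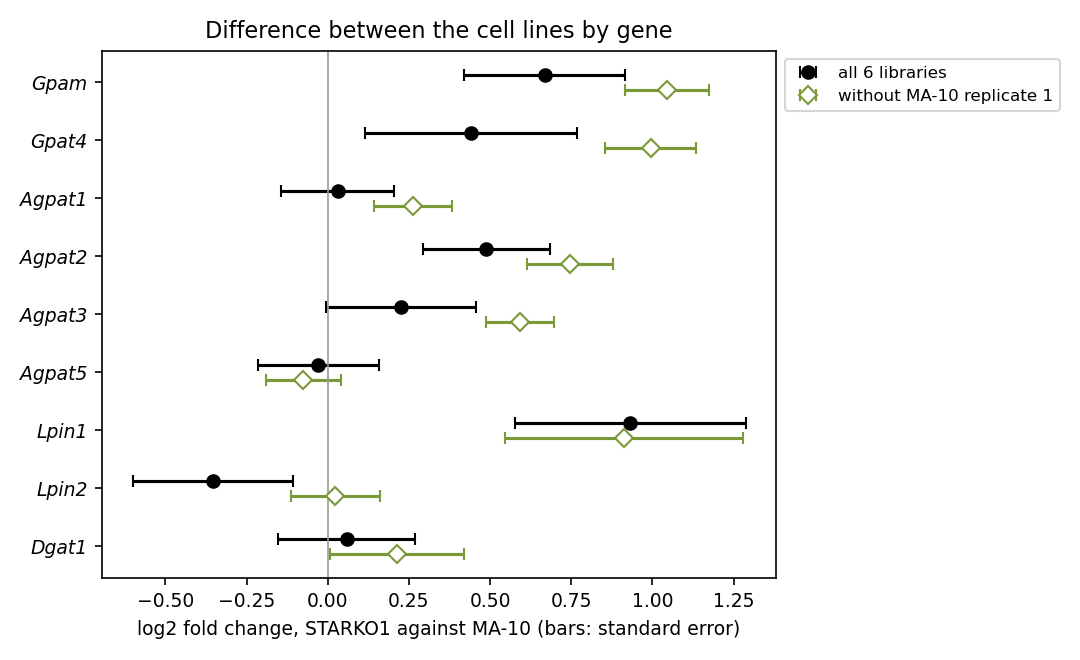
Log2 fold change of STARKO1 against MA-10 for the 9 tested enzyme genes, with bars of 1 standard error, from all 6 libraries (black circles) and without MA-10 replicate 1 (open green diamonds). Leaving out that library raised the estimate most for Gpat4 (0.44 to 0.99), Gpam (0.67 to 1.05), Lpin2 (-0.35 to 0.02) and Agpat3 (0.23 to 0.59). The estimates of Agpat5 and Lpin1 fell. Fits without MA-10 replicate 2 or 3, which lowered the estimates of Gpat4, Gpam, Lpin2 and Agpat3, are not drawn.

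The genes of the chain covered a wide range of levels. Divided by the exon length of the gene, the levels in MA-10 cells ran from 13.9 ± 4.19 CPM per kb (SD, n = 3) for Agpat3 and 13.4 ± 4.30 for Gpam to 1.31 ± 0.123 for Dgat1, 0.160 ± 0.0484 for Lpin1 and 0.0686 ± 0.0750 for Dgat2. Between these lay Agpat2, Agpat1, Gpat4, Agpat5 and Lpin2, in this order, from 10.2 down to 4.07 CPM per kb. Neighbours in the order had overlapping libraries in MA-10 cells, except Lpin2 and Dgat1 and, after them, Dgat1 and Lpin1. In STARKO1 cells the order was Gpam (21.3 ± 1.75 CPM per kb, SD, n = 3), Agpat3 (16.3 ± 0.177), Agpat2 (14.3 ± 0.935), Gpat4, Agpat1, Agpat5, Lpin2, Dgat1, Lpin1 and Dgat2, and no neighbours overlapped. Gpam and Agpat3 thus exchanged places, as did Gpat4 and Agpat1, but both pairs overlapped in MA-10 cells.

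Summed over the isoenzymes of a step, per length, the GPAT genes (with Gpat3) reached 20.7 ± 7.56 CPM per kb in MA-10 cells and 30.9 ± 1.72 in STARKO1 cells (SD, n = 3 each). By library the GPAT sum was 29.4, 16.8 and 15.9 in MA-10 cells and 31.2, 32.4 and 29.03 in STARKO1 cells, so that MA-10 replicate 1 lay within the STARKO1 range and the other MA-10 libraries well below it. The sum of the AGPAT genes was 36.3 ± 6.81 and 42.9 ± 1.39, that of the lipins (with Lpin3) 5.85 ± 1.97 and 6.44 ± 0.17, and that of the DGAT genes 1.38 ± 0.172 and 1.42 ± 0.167 CPM per kb. MA-10 replicate 1 had the highest sum of all 6 libraries in the AGPAT, lipin and DGAT steps. Transcript levels of the DGAT step were the lowest of the 4 steps in each of the 6 libraries. Dgat1 supplied 90.6% to 100% of the DGAT sum in every library.

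The balance between isoenzymes was compared within each library, which removes the effect of library scaling. The log2 ratio of Agpat1 to Agpat2 counts was 0.09, -0.02 and 0.32 in the MA-10 libraries and -0.35, -0.26 and -0.41 in the STARKO1 libraries, without overlap. The difference was -0.47 (two-sided exact permutation test, p = 0.1, the smallest that 3 against 3 libraries can give, and 0.4 after Benjamini-Hochberg adjustment over 4 ratios). Lpin1 to Lpin2 had a log2 ratio of -5.69, -4.11 and -5.20 in MA-10 cells and -3.62, -3.47 and -4.25 in STARKO1 cells, which overlapped (difference 1.22, exact permutation p = 0.2, adjusted 0.4). The log2 ratios of Gpam to Gpat4 and of Agpat3 to Agpat5 differed by 0.16 and 0.28 and overlapped (exact permutation p = 0.5 for both, adjusted 0.5). The ratio of Dgat1 to Dgat2 was not formed, because Dgat2 had 0 counts in 1 library.

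Lpin3, which belongs to the same phosphatase family but was not among the 10 genes, had 8.99, 5.64 and 3.35 CPM in the MA-10 libraries and 10.97, 10.7 and 11.1 CPM in the STARKO1 libraries. Its log2 fold change was 0.85 (SE 0.338, edgeR adjusted p = 0.119), and 1.37 (edgeR adjusted p = 0.000605) without MA-10 replicate 1. As a share of the 3 lipins per length, Lpin2 made up 68.4%, 62.8% and 78.2% in the MA-10 libraries and 49.2%, 50.3% and 48.8% in the STARKO1 libraries. The share of Lpin3 was 29.97%, 32.6% and 19.1% in MA-10 cells and 45.7%, 43.9% and 47.9% in STARKO1 cells. These shares were looked at after the counts and were not tested. The exon length of Lpin2 is 12233 bases and that of Lpin3 is 3694 bases, and with gene length offsets their log2 fold changes were -0.39 and 0.87.

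**Figure D3:**
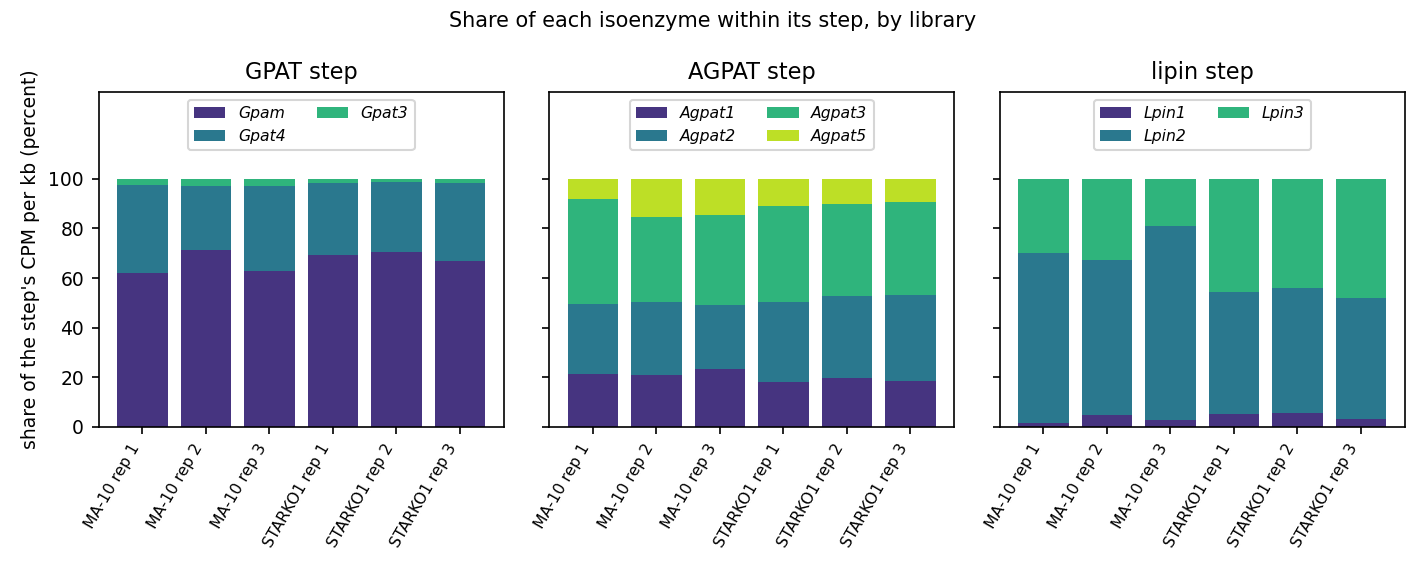
Share of each isoenzyme in the summed CPM per kb of its step (percent, bars stacked to 100) in each library, for the GPAT, AGPAT and lipin steps, with Gpat3 and Lpin3 included. The Lpin2 share is between 62.8% and 78.2% in MA-10 and between 48.8% and 50.3% in STARKO1, while the Gpam share overlaps between the cell lines.

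The sequences upstream of Gpam, Agpat2 and Lpin1 are shown because these were the 3 enzyme genes with an unadjusted p under 0.05. They are the 250 bases before RefSeq transcript starts in GRCm38.p6, read 5′ to 3′ on the gene's strand, with GC boxes (GGGCGG) and CCAAT boxes (CCAAT) in capitals on either strand. RefSeq windows were found for 6 of the 10 genes, 10 windows in all, and not for Gpat4, Agpat5, Dgat1 and Dgat2.
Gpam, outer start, chr19:55127239-55127488, minus strand: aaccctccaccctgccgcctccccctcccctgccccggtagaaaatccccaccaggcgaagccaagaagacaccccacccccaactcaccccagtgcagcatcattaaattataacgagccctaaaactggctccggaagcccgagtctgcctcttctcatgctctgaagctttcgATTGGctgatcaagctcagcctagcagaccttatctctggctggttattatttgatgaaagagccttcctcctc
Gpam, inner start, chr19:55099478-55099727, minus strand: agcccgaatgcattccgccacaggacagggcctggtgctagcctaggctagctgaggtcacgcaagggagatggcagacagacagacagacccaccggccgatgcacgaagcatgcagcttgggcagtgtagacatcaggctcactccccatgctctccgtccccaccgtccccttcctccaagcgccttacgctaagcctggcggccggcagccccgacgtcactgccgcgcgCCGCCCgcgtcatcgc
Agpat2, chr2:26604418-26604667, minus strand: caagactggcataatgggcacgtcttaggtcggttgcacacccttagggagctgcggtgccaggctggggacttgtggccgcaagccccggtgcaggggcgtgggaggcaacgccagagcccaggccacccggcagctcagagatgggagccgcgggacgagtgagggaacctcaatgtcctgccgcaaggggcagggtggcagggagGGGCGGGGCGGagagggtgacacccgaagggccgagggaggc
Lpin1, chr12:16610967-16611216, minus strand: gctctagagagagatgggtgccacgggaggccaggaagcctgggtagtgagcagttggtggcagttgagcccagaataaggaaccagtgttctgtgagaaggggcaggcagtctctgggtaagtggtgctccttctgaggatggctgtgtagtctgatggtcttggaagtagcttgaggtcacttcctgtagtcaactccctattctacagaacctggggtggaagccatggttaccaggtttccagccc

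The outer Gpam window holds 1 CCAAT box and the inner window 1 GC box, the Agpat2 window holds 2 overlapping GC boxes, and the Lpin1 window holds neither. Over the 10 windows of the enzyme genes, 6 held a GC box, against 32.7% of 32817 windows of all genes, and 3 held a CCAAT box, against 33.8%. Windows of the same gene are counted separately here, and those with a GC box belonged only to Gpam, Agpat1, Agpat2 and Lpin2. An E-box (CACGTG) was found in 1 window, at Lpin2, against 6.02%. The core of the sterol regulatory element (TCACNCCAC, 1.05% of all windows), an NR5A site (CAAGGTCA, 1.33%) and the cAMP response element (TGACGTCA, 1.55%) were in 0 of the 10. A match is a run of letters and not a measured binding site, and no binding was measured in these cells.

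The neighbouring genes of the pathway were taken from 7 lists of 56 symbols, of which 46 were found and 42 tested. In edgeR's test, 3 genes of these were called higher and 3 lower in STARKO1 cells, 6 of 42 beside 9.04% of all genes tested, and the median log2 fold change was -0.0014. With DESeq2, 9 of the 42 passed, beside 28.4% of all genes tested, the same 6 and Cept1, Pnpla2 and Ptpmt1. With library size alone in place of TMM 0 of the 42 passed, beside 2.76% of all genes, and 0 passed without STARKO1 replicate 1, 2 or 3, beside 0.731%, 1.1% and 0.762% of all genes. Without MA-10 replicate 1, 25 of the 42 passed, beside 65.5% of all genes in that fit. At an unadjusted p under 0.05, 9 of the 42 were higher in STARKO1 cells and 6 lower, beside 15.0% and 22.7% of all genes tested. The 6 genes called by edgeR were in the lists of other DAG enzymes and of droplet assembly and coat. The study had already named Plpp3, Plin1 and Bscl2 as differentially expressed from RNA sequencing of these cells. Their calls here are not independent of it. In the list of other enzymes that make or use DAG, 8 genes were tested and 2 called. Plpp3, a lipid phosphatase of the cell surface that can turn phosphatidic acid into DAG, rose from 15.0 ± 4.26 to 49.5 ± 2.03 CPM, and Plpp5, of the same family, fell from 6.25 ± 0.611 to 2.04 ± 0.443 CPM (SD, n = 3 each). Their log2 fold changes were 1.72 and -1.62 (edgeR adjusted p = 0.00913 and 0.0148), that of Plpp5 on counts of 34 to 103 per library. Plpp3 passed in 7 of the 8 alternatives with all 6 libraries and Plpp5 in 5. Each passed in 2 of the 6 fits that left out 1 library. Chpt1 and Selenoi, which use DAG to make phosphatidylcholine and phosphatidylethanolamine, had log2 fold changes of 0.19 and 0.04 (edgeR adjusted p = 0.404 and 0.904). Cept1, which can make both phospholipids and is named here after its values were known, had -0.79 without overlap (edgeR adjusted p = 0.0806, 0.000471 without MA-10 replicate 1, and 0.0405 with DESeq2).

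In the list of droplet assembly and coat genes, 8 were tested, 2 called higher and 2 called lower. Tmem159, which encodes the partner of seipin at sites of droplet formation, had 7.79, 16.7 and 10.04 CPM in the MA-10 libraries and 4.26, 4.30 and 3.82 CPM in the STARKO1 libraries. Its log2 fold change was -1.47 (SE 0.306, edgeR adjusted p = 0.0359). Bscl2, which encodes seipin itself, fell from 9.92 ± 1.04 to 4.0 ± 0.251 CPM (SD, n = 3 each). Its log2 fold change was -1.31 (SE 0.182, edgeR adjusted p = 0.0115). Bscl2 and Tmem159 each passed in 5 of the 8 alternatives with all 6 libraries. They passed in 3 and 2 of the 6 fits that left out 1 library. By qRT-PCR, the study found Plpp3 and Plin1 significantly higher in STARKO1 cells, and the decrease of Bscl2 not significant. The droplet coat genes Plin1 and Plin5 rose, with log2 fold changes of 1.18 and 1.12 (edgeR adjusted p = 0.0489 and 0.0417). Plin1 passed in 2 of the 8 alternatives with all 6 libraries and Plin5 in 5. Each passed in 1 of the 6 fits that left out 1 library. Plin2 and Plin3 had log2 fold changes of -0.39 and 0.42 (edgeR adjusted p = 0.134 and 0.260), and Plin3 had 0.85 (edgeR adjusted p = 0.000367) without MA-10 replicate 1.

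The remaining 5 lists held no gene called by edgeR, and 2 called by DESeq2 (Ptpmt1 and Pnpla2). In the list of precursor supply (9 tested), the abundant Acsl4, Acsl3 and Gnpat had log2 fold changes of -0.10, -0.19 and -0.05. Ctdnep1 and Cnep1r1, the phosphatase complex that activates lipins by dephosphorylation (2 tested), had 0.54 and 0.43 (edgeR adjusted p = 0.281 and 0.1245). Without MA-10 replicate 1 these were 1.15 and 0.65 (edgeR adjusted p = 0.00019 and 0.0024). In the branch that turns phosphatidic acid into CDP-DAG and on to cardiolipin and phosphatidylinositol (6 tested), Ptpmt1, Crls1 and Cds2 had 0.44, 0.34 and -0.05. The DESeq2 adjusted p of Ptpmt1 was 0.0338, and without MA-10 replicate 1 the edgeR adjusted p was 0.00137 for Ptpmt1 and 0.0033 for Crls1. Cdipt, the phosphatidylinositol synthase, also named after its values were known, had -0.45 without overlap (edgeR adjusted p = 0.0931). In the list of triglyceride breakdown (4 tested), Pnpla2, the main triglyceride lipase, its activator Abhd5 and its inhibitor G0s2 had -0.57, -0.41 and -0.37 (edgeR adjusted p = 0.0688, 0.139 and 0.306). Without MA-10 replicate 1 the edgeR adjusted p of these was 0.0221, 0.011 and 0.0498, and the DESeq2 adjusted p of Pnpla2 with all libraries was 0.0202. Lipe, a lipase that acts on DAG and likewise named after its values were known, had 0.53, higher without overlap (edgeR adjusted p = 0.127, and 0.000619 without MA-10 replicate 1). Among the other isoenzymes (5 tested), Lclat1 and Lpgat1 had -0.10 and -0.07.

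**Figure D4:**
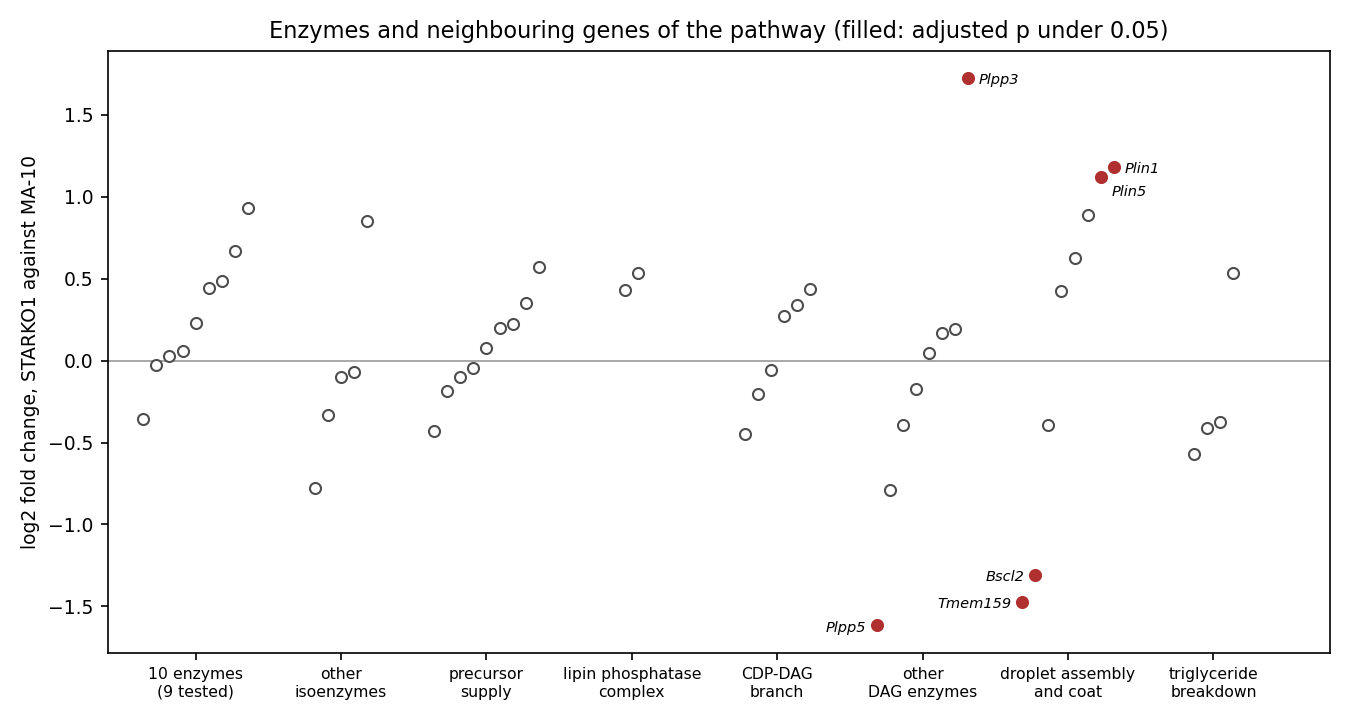
Log2 fold change of STARKO1 against MA-10 for the tested enzyme genes and the tested genes of 7 neighbouring lists, 1 point per gene, filled where edgeR's adjusted p was under 0.05. The 6 filled points, Plpp3, Plin1, Plin5, Bscl2, Tmem159 and Plpp5, lie in the lists of other DAG enzymes and of droplet assembly and coat, and the 9 enzyme genes of the chain span -0.35 to 0.93.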

How the data were processed

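RNA of 3 MA-10 and 3 STARKO1 libraries was compared, sequenced with a kit that keeps strand and starts from total RNA. The deposited values are estimated counts per gene, not normalized; per the labels, the submitters' processing notes name STAR 2.6.1d, Partek and mm10. Which program counted the reads, and with which annotation, is not given in the sources used here. The largest distance of a value of the 10 genes from a whole number was 0.03. Values were made whole by rounding and fitted with edgeR 4.0.16 under R 4.3.3 (filterByExpr, TMM, glmQLFit and glmQLFTest over all genes, Benjamini-Hochberg adjustment, threshold 0.05); DESeq2 1.42.0 was an alternative. Exon lengths came from GENCODE vM21, matched by symbol and chromosome for 14677 genes; gene ends are GENCODE's, since the deposited ends of the 10 genes lie 1 base further. Standard errors are the log2 fold change divided by the square root of F. The common biological coefficient of variation was 0.291. Ratios and tables were computed in Python 3.11.15 with pandas 2.3.3 and numpy 2.4.6. The scripts were tested on simulated counts whose variation was set equal in all libraries and below that of these data. That test does not give the error rate in these data.

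The 10 genes were set by name and not by a threshold, but they, the lists and the tests were chosen with earlier results of these data known. Named genes are the 10 enzymes, Star, called genes of the lists and up to 3 genes with the highest mean CPM in each list. Cept1, Cdipt, Lipe, the marker genes named, the 7SL RNA, Gm26917, the ribosomal protein genes and the isoenzyme shares were picked with their values in view. The alternatives are DESeq2, other scaling and filters, gene length offsets, a replicate block and leaving out each library.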

Additional observations from a re-analysis of the deposited data

How the results depend on the processing

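Depth limits Lpin1, Dgat1 and Dgat2, which had under 100 counts in every library. Over the 8 alternatives with all 6 libraries, 0 of the enzyme genes passed the threshold. Gpam, Gpat4, Agpat1, Agpat2, Agpat3, Lpin1 and Dgat1 stayed above 0 in these, though Agpat1 and Dgat1 turned in fits that left out 1 library. Leaving out 1 library gave 0 to 4 called enzyme genes (4 without MA-10 replicate 1, 0 otherwise), 0 to 25 called genes of the pathway lists (25 without MA-10 replicate 1, and 0 without STARKO1 replicate 1, 2 or 3) and 89 to 7995 called genes in all (7995 without MA-10 replicate 1, 89 without STARKO1 replicate 1). The count of all called genes, 1079, was 3395 with DESeq2, 330 with library size alone, 692 with at least 10 counts in every library, 234 with the replicate block and 240 with gene length offsets and the replicate block. The count in the pathway lists, 6, was 9 with DESeq2 and 0 with library size alone. It was 1 (Plpp3) with the replicate block and 1 with gene length offsets and the replicate block. It was 5 with upper quartile scaling, without a filter on low counts and with at least 10 counts in every library. Plin1 was not called in these fits. The cause of these shifts was not tested.

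Same-numbered libraries did not deviate together (correlations of deviations -0.02, 0.046 and 0.02), so the number is not taken to pair them. Differencing same-numbered libraries as a replicate block cannot change the mean difference of a log2 ratio, so it is no check on these values. They stayed by construction at -0.47 for Agpat1 to Agpat2, 0.16 for Gpam to Gpat4, 0.28 for Agpat3 to Agpat5 and 1.22 for Lpin1 to Lpin2. Only the exact p can change, and 3 pairs cannot give one below 0.25.

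Library size alone moved the median log2 fold change of all genes by 0.43 and upper quartile scaling by 0.15, and 63.6% and 55.6% of the calls were then to the STARKO1 side, against 47.5% with TMM. With library size alone, the log2 fold change turned to 0.46 for Agpat5, 0.33 for Lpgat1, 0.32 for Lclat1, 0.35 for Acsl4, 0.24 for Acsl3, 0.40 for Gnpat, 0.34 for Cds2, 0.0040 for Plin2, 0.15 for G0s2 and 0.065 for Abhd5, all but Agpat5 below that shift and none past the threshold. With upper quartile scaling it turned to 0.13 for Agpat5, 0.068 for Lpgat1, 0.041 for Lclat1, 0.052 for Acsl4, 0.10 for Gnpat and 0.078 for Cds2, and without a filter on low counts to 0.034 for Agpat5 and 0.011 for Gnpat. Over the fits that left out 1 library, the value reached from -0.043 to 0.26 for Agpat1, -0.075 to 0.11 for Agpat5, -0.54 to 0.023 for Lpin2, -0.029 to 0.21 for Dgat1, -0.18 to 0.13 for Lpgat1, -0.21 to 0.078 for Lclat1, -0.055 to 0.053 for Gnpat, -0.15 to 0.17 for Cds2 and -0.16 to 0.39 for Selenoi.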
